A study of Mus musculus with 18 samples.

Results

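The 10 genes described here are genes of the endothelium and of the first blood cells: the receptors and adhesion molecules Kdr, Flt1, Tek, Pecam1 and Cdh5, the transcription factors Etv2, Tal1 and Lmo2, and the embryonic globins Hbb-y and Hba-x. They were taken by symbol, and all 10 are among the 24346 symbols listed for each of the 18 libraries. The libraries are polyA RNA-seq of female mouse embryonic stem (ES) cell lines that were wild type (wt) or had lost Kdm6a, an X-linked histone H3K27 demethylase, by CRISPR/Cas9. Tsix-stop cells derive from a cross of 129 and cast mice and carry a stop in Tsix on the 129 X, which is therefore the X that is silenced. Of the 10 Tsix-stop libraries, 2 were wt and 2 were Kdm6a KO at D0 (undifferentiated cells grown with LIF on feeder cells), 2 were wt and 2 were KO at D15 of nondirected differentiation as embryoid bodies without LIF, and 1 at each day was labelled a CRISPR control, treated with CRISPR/Cas9 but without a deletion. The names of the deposited files call these 2 libraries a KO replicate, so their identity is uncertain, and every value of the CRISPR control below is that of a library so labelled. The Tsix-stop KO lines carry deletions from exon 2 into exon 4 of Kdm6a, and the labels do not say which clone gave which library. E8 cells derive from a cross of BL6 and cast mice and silence either X, at random but with some preference for the BL6 X. Their 8 libraries were wt and KO at D7 and at D15, with 2 each, and the KO was 1 clone with a homozygous deletion of the Kdm6a promoter. These days are as labelled, and the study's methods describe E8 RNA-seq on earlier days only, so culture and day are uncertain. The question of these comparisons is how the loss of Kdm6a bears on genes of a lineage that appears during differentiation.

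Kdr (VEGF receptor 2, also called Flk1) marks the mesoderm from which blood and endothelium arise, and it is the main signalling receptor for VEGF-A. The ETS factor Etv2 switches on Kdr and the endothelial programme, and Tal1 and Lmo2 act in 1 complex that commits cells to blood. Flt1 (VEGF receptor 1) binds VEGF tightly and limits its supply, Tek (TIE2) is the angiopoietin receptor, Cdh5 (VE-cadherin) holds endothelial cells together, and Pecam1 is an adhesion molecule of endothelium that ES cells also carry. Hbb-y and Hba-x are embryonic beta-like and alpha-like globins, made by primitive red cells of the yolk sac.

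Each Tsix-stop library held 51091152 to 68796179 counts. The E8 files give TPM, so their depth is unknown. Kdm6a was 46.7 and 47.2 TPM in E8 wt at D7 and 47.8 and 47.5 at D15, against 0.00969, 0.0319, 0.0199 and 0.00578 TPM in the 4 E8 KO libraries. In Tsix-stop cells Kdm6a was 139 and 209 CPM (counts scaled to library size) in wt against 130 and 48.4 in KO at D0. At D15 it was 138 and 109 against 93.3 and 28.0 CPM, and the CRISPR control had 128 and 93.3 CPM at the 2 days. The gene-level count includes exons outside the Tsix-stop deletion and so does not check those labels. The 2 libraries of each Tsix-stop group differed by more than sampling noise, and the study's methods call its wt libraries biological replicates and name 2 KO clones. For E8 no source used here says that the 2 libraries of a group came from separate cultures, so those p-values measure only the spread between libraries, which may be technical. The E8 wt libraries labelled as differentiated kept high pluripotency markers: Pou5f1, the core pluripotency factor, was 1.73e+03 and 1.63e+03 TPM at D7 and 1.86e+03 and 2.04e+03 at D15.

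The promoters of 3 of the genes that differed most are shown to let them be compared. They are the 200 bases that end 20 bases before the RefSeq start of each gene (build GRCm38.p6), read 5′ to 3′ on the gene's strand. Capitals mark any of 6 motifs searched on both strands: the GATA factor motif in the form TGATAA and in the form AGATAA, the KLF motif CCACCC, the NF-Y motif CCAAT, the TATA-like ATAAA, the ETS motif in the form GGAAGT and in the form GGAAAT, and the E-box CAGNTG. The Kdr window is chr5:75978476-75978675, the Flt1 window is chr5:147726032-147726231 and the Hbb-y window is chr7:103853228-103853427, all on the minus strand.
Kdr: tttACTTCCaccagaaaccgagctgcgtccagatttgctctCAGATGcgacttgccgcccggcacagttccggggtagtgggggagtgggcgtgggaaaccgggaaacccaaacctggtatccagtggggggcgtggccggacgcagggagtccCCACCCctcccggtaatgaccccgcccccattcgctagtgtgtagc
Flt1: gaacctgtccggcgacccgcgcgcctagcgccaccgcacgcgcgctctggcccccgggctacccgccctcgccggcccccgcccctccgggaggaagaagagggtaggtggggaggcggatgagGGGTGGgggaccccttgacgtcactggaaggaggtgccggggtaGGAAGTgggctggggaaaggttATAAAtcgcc
Hbb-y: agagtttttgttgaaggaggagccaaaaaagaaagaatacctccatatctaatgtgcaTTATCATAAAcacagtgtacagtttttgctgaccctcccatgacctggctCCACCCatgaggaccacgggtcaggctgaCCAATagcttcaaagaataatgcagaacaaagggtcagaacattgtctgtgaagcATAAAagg
The Kdr window held 1 ETS match on the other strand, 1 E-box and 1 KLF motif, and 63.5% of its bases were G or C. The Flt1 window was 71.5% G or C, with 1 KLF motif (read on the other strand), 1 ETS match and 1 TATA-like motif. The Hbb-y window was 43.0% G or C and held a GATA match on the other strand that overlaps a TATA-like motif by 1 base, then a KLF motif, an NF-Y motif and a second TATA-like motif near the start. Of 32851 RefSeq windows of the same length, 13.8% held a GATA match, 23.7% the KLF motif, 29.4% the NF-Y motif, 32.0% the TATA-like motif, 26% an ETS match and 38.1% the E-box, and their median G or C content was 52.5%. The table matched 7 of the 10 genes. The Hba-x window held 1 GATA match, 1 KLF motif and 1 TATA-like motif, and the Tek window held none of the 6.

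Pecam1 was the most abundant of the 10 genes in every group on the TPM scale, from 31.3 TPM in E8 KO at D7 to 111 TPM in the D0 CRISPR control. In Tsix-stop wt at D0 it stood at 79.5 ± 3.74 TPM (SD, n = 2), followed by Etv2 at 12.8 ± 1.69, Lmo2 at 5.85 ± 1.88 and Tek at 2.87 ± 0.193, while the other 6 were below 1 TPM. Etv2 and Lmo2 were thus above Kdr in these undifferentiated cells. At D15 in wt the order changed to Flt1 at 19.6 ± 2.25 TPM, Hbb-y at 17.3 ± 3.04 and Hba-x at 17.0 ± 1.83 after Pecam1, which do not differ beyond their spread, and then Cdh5 at 7.35 ± 0.162 and Tek at 6.80 ± 0.174. In E8 KO at D15 the order was Pecam1, Kdr at 19.4 ± 0.212 TPM, Etv2 at 11.5 ± 0.677 and Flt1 at 9.0 ± 0.233.

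**Figure D1:**
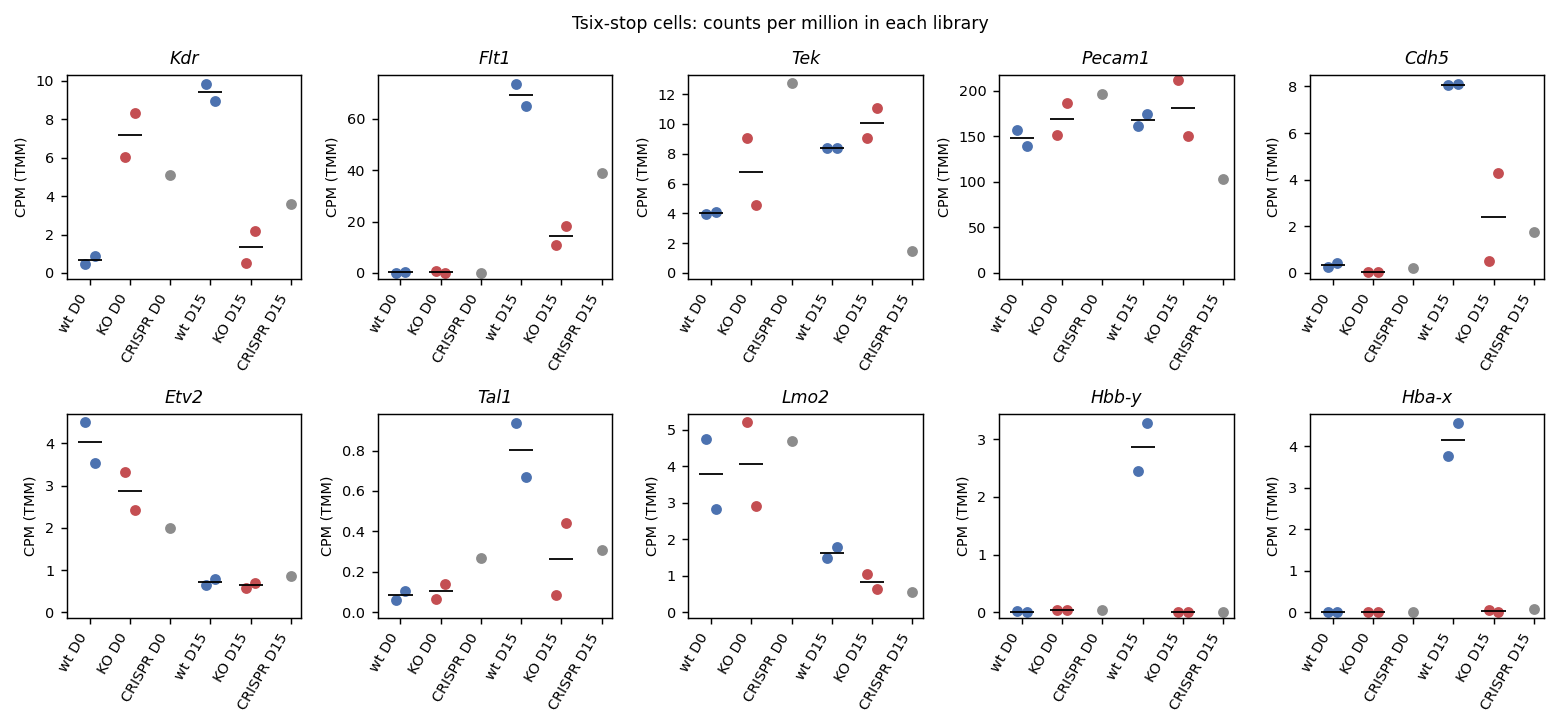
Level of each of the 10 genes in the 10 Tsix-stop libraries, in CPM after TMM scaling (y axis, a scale for each gene). Points are libraries, coloured by genotype, and lines are means of 2 libraries. Kdr is low in wt at D0 and high at D15, and the other way round in KO, while the globins stand above 2 CPM in the 2 wt D15 libraries only.

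In undifferentiated Tsix-stop cells, Kdr was the member that differed between genotypes. It was 0.479 and 0.872 CPM in wt against 6.01 and 8.34 CPM in KO, which is 10.6-fold by the means. The groups did not overlap, and edgeR gave a log2 fold change of 3.41 ± 0.59 (SE) with an adjusted p of 0.00952. The library labelled CRISPR control at D0 had 5.12 CPM of Kdr, 7.57 times the wt mean and near the lower KO library. With that control counted as wt, the log2 fold change of Kdr was 1.73 with an adjusted p of 0.496, and no member was called by edgeR (1 at an unadjusted p under 0.05). The call rule here and below is an FDR of at most 0.1 with at least a 2-fold change. It called 1 of the 9 members tested, beside 3.11% of all 13121 genes called higher and 5.01% called lower in KO.

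The other receptors were not called at D0. Tek was 3.94 and 4.11 CPM in wt against 9.04 and 4.55 in KO, a log2 fold change of 0.75 ± 0.31 with an adjusted p of 0.15, and 12.8 CPM in the CRISPR control. Tek passed without KO D0 replicate 2, at a log2 fold change of 1.17, and Cdh5 passed without either KO D15 library, with no filter or with DESeq2. Cdh5 had 18 and 25 counts in wt against 3 and 2 in KO, a ratio of 8.77 (95% counting interval 3.48 to 28.4). The CRISPR control had 13 counts of Cdh5, between the groups. Flt1 ranged from 0.156 to 0.597 CPM over the 4 wt and KO libraries, and the genotypes overlapped. Etv2 was 4.50 and 3.54 CPM in wt against 3.32 and 2.42 in KO, with an adjusted p of 0.317, and Lmo2 overlapped. Hbb-y had at most 3 counts and Hba-x none in any D0 library.

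From D0 to D15, Tsix-stop wt cells gained endothelial receptors and embryonic globins and lost Etv2 and Lmo2. Of 9 members tested, 6 rose and 2 fell, beside 24.2% of all genes that rose and 13.6% that fell. Cdh5 and both globins, among the 6, passed the filter on low counts only with the wt D15 libraries, where they are high. The count is therefore no support. Kdr went to 9.84 and 8.94 CPM at D15, a log2 rise of 3.83 ± 0.60 (adjusted p = 0.000495). Flt1 went from 0.170 and 0.488 CPM to 73.5 and 64.9, a log2 rise of 7.76 ± 0.58 (adjusted p = 9.72e-06), the steepest among the receptors. Cdh5 rose from 0.278 and 0.436 CPM to 8.05 and 8.10 (log2 4.52 ± 0.85). Tek rose from 3.94 and 4.11 CPM to 8.36 and 8.38 (log2 1.08 ± 0.31). Pecam1 was 157 and 139 CPM at D0 and 161 and 174 at D15 and was not called. Among the transcription factors, Etv2 fell to 0.641 and 0.796 CPM (log2 -2.46 ± 0.32) and Lmo2 fell from 4.76 and 2.84 CPM to 1.48 and 1.79 (log2 -1.19 ± 0.41). Without wt D0 replicate 1 or wt D15 replicate 1 the fall of Lmo2 did not pass. Tal1 was below the filter on low counts in every library, with 4 and 6 counts at D0 against 60 and 37 at D15.

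The globins appeared in the wt D15 libraries. Hbb-y went from 1 and 0 counts to 157 and 181, a ratio of 346 (counting interval 61.6 to 1.37e+04). Hba-x had 0 counts in both D0 libraries and 241 and 252 at D15, at least 84.3-fold higher when 3 counts per library are taken as the floor. Both globins passed the filter on low counts only through the wt D15 libraries, where they are high, so their calls had to follow and are no support for the counts above.

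At D15, Kdr, Flt1, Cdh5 and both globins were lower in Kdm6a KO cells than in wt. Of the 9 members tested, 5 were lower in KO and none was higher, beside 11.1% of all genes called lower and 3.83% called higher. The globins were tested only through the wt D15 libraries where they are high, and without either of these libraries 2 of 7 members were called, so the count is no support. Kdr was 9.84 and 8.94 CPM in wt against 0.527 and 2.21 in KO, a log2 fold change of -2.80 ± 0.56 (adjusted p = 0.00684). Flt1 was 73.5 and 64.9 CPM in wt against 10.7 and 18.3 in KO, a log2 fold change of -2.27 ± 0.42 (adjusted p = 0.00454). Neither gene's groups overlapped. Cdh5 was 8.05 and 8.10 CPM in wt against 0.493 and 4.28 in KO, a log2 fold change of -1.78 ± 0.73 (adjusted p = 0.0885). Like the globins, Cdh5 passed the filter only with the wt D15 libraries, since KO D15 replicate 2 alone was above it elsewhere. The KO libraries differ widely for Cdh5, and its call was lost without either wt library at D0 or D15, or without KO D15 replicate 1, where the log2 fold change was -0.91. Tek, at 9.06 and 11.1 CPM in KO, and Pecam1, at 213 and 151, were not called.

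Of the blood genes, the globins were lower in KO, while Etv2 and Lmo2 were not called. Hbb-y had 0 counts in both KO libraries at D15, so that wt was at least 53.9-fold higher (floor of 3 counts per library). Hba-x had 3 and 0 counts in KO, a ratio of 156 in favour of wt (counting interval 53.1 to 759). Lmo2 was 1.48 and 1.79 CPM in wt against 1.04 and 0.644 in KO, with a log2 fold change of -0.97 ± 0.43 and an adjusted p of 0.112. Tal1 had 60 and 37 counts in wt against 5 and 24 in KO and was not tested. Etv2 was low in both genotypes, at 0.578 to 0.796 CPM, and overlapped.

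The D15 CRISPR control lay below both wt libraries for every member but Etv2, and its place beside the KO libraries varied. It had 0 counts of Hbb-y and 4 of Hba-x, close to the KO libraries. Its Kdr (3.59 CPM) and Flt1 (39.0 CPM) were below both wt libraries and above both KO libraries, its Cdh5 (1.77 CPM) was within the KO range, and its Tek (1.45 CPM) was below all 4. Its Tal1 (0.307 CPM) was also within the KO range, and its Lmo2 (0.562 CPM) and Pecam1 (103 CPM) were below all 4. Counted as wt, it left 3 members called at D15 (Flt1, Hba-x and Hbb-y), with Kdr at an adjusted p of 0.142 and Cdh5 at 0.324.

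Within KO cells, D15 against D0 gave 2 members called higher and 4 called lower, beside 20% and 7.66% of all genes. Flt1 rose from 0.597 and 0.156 CPM to 10.7 and 18.3 (log2 5.29 ± 0.54), and Cdh5 rose from 3 and 2 counts to 29 and 233, a ratio of 57.6 (counting interval 24.4 to 179). Counting intervals, here and above, leave out the spread between libraries, which is wide for Cdh5 in KO at D15. Kdr fell from 6.01 and 8.34 CPM to 0.527 and 2.21 (log2 -2.39 ± 0.56, adjusted p = 0.00627), where in wt it rose. Etv2 (log2 -2.15 ± 0.33) and Lmo2 (log2 -2.25 ± 0.43) fell as in wt. The last call was Hbb-y, which had at most 3 counts in each of these libraries and is read as no change. The comparisons within wt, within KO and between them share libraries, so they are not separate evidence.

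The test of the difference itself, the interaction of KO and day, called 3 of 9 members beside 17.1% of all genes, with Hbb-y tested only through the wt D15 libraries. For Kdr the interaction was -6.21 ± 0.82 on the log2 scale (adjusted p = 0.00234), and for Flt1 it was -2.47 ± 0.78 (adjusted p = 0.0517). The Flt1 call was lost without either wt D15 library, wt D0 replicate 1 or KO D0 replicate 1, with adjusted p values from 0.113 to 0.374. Hbb-y was the third, with counts above 3 in the wt D15 libraries only. With the CRISPR control counted as wt, edgeR called none (3 at an unadjusted p under 0.05).

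**Figure D2:**
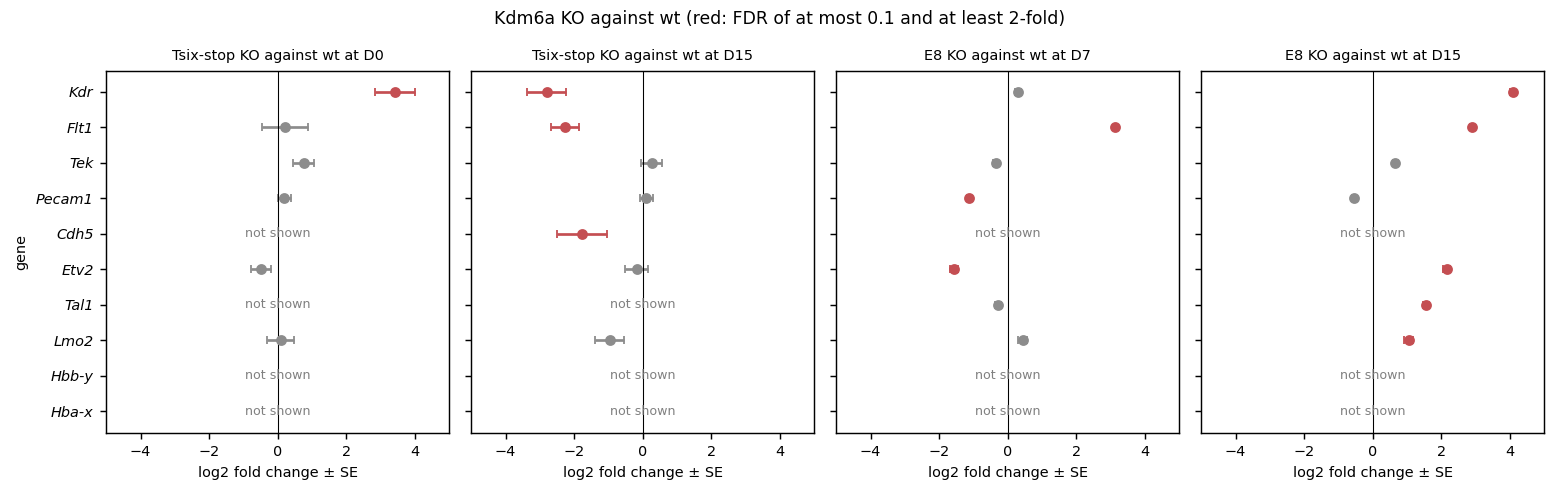
Log2 fold change of KO against wt for each gene (x axis, with SE bars) in the 4 comparisons of genotype. Tsix-stop values are from edgeR on counts and E8 values from limma on log2(TPM + 1). Genes under the filter, or at 3 counts or fewer in a group, are marked as not shown. Kdr, Flt1 and Cdh5 are left of 0 in Tsix-stop cells at D15, and Kdr and Flt1 are right of 0 in E8 cells at D15.

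Markers of several other cell types were lower in KO at D15, as were Kdr, Flt1 and Cdh5. Over 10 fibroblast markers the summed level was 3.58e+03 to 4.03e+03 TPM in Tsix-stop wt at D15, against 560 to 655 TPM in KO and 545 in the CRISPR control, and 9 of the 10 were lower in KO. For visceral endoderm, the yolk sac epithelium, the sums were 906 to 1.02e+03, 40.0 to 71.3 and 42.0 TPM, with 8 of 10 markers lower in KO. Of 7 smooth muscle and pericyte markers tested 4 were lower, as were 6 of 7 of cardiac muscle, 3 of 8 of trophoblast and 2 of 4 of macrophages. The trophoblast sums overlapped, at 396 to 421 TPM in wt against 259 to 425 in KO, with 516 in the CRISPR control. Of 10 pluripotency markers, 4 were higher in KO, with sums of 3.34e+03 to 3.62e+03 TPM in wt, 5.61e+03 to 6.63e+03 in KO and 3.88e+03 in the control. Dcn was below 1 TPM in both KO libraries at D15, and Abcc9 and Kcnj8, of pericytes, in all 5 libraries of that day. At D0 the fibroblast sums overlapped, at 384 to 500 TPM in wt against 441 to 489 in KO, while 2 of the 10 markers were lower and 1 higher, with a median log2 fold change of -1.22. Cardiac muscle markers at D0 summed to 48.4 to 55.7 TPM in wt against 13.3 to 13.4 in KO, with 15.6 in the CRISPR control. The part of these differences in the results for the endothelial genes was not tested. In bulk libraries fewer cells of a type and less RNA per cell cannot be told apart.

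**Figure D3:**
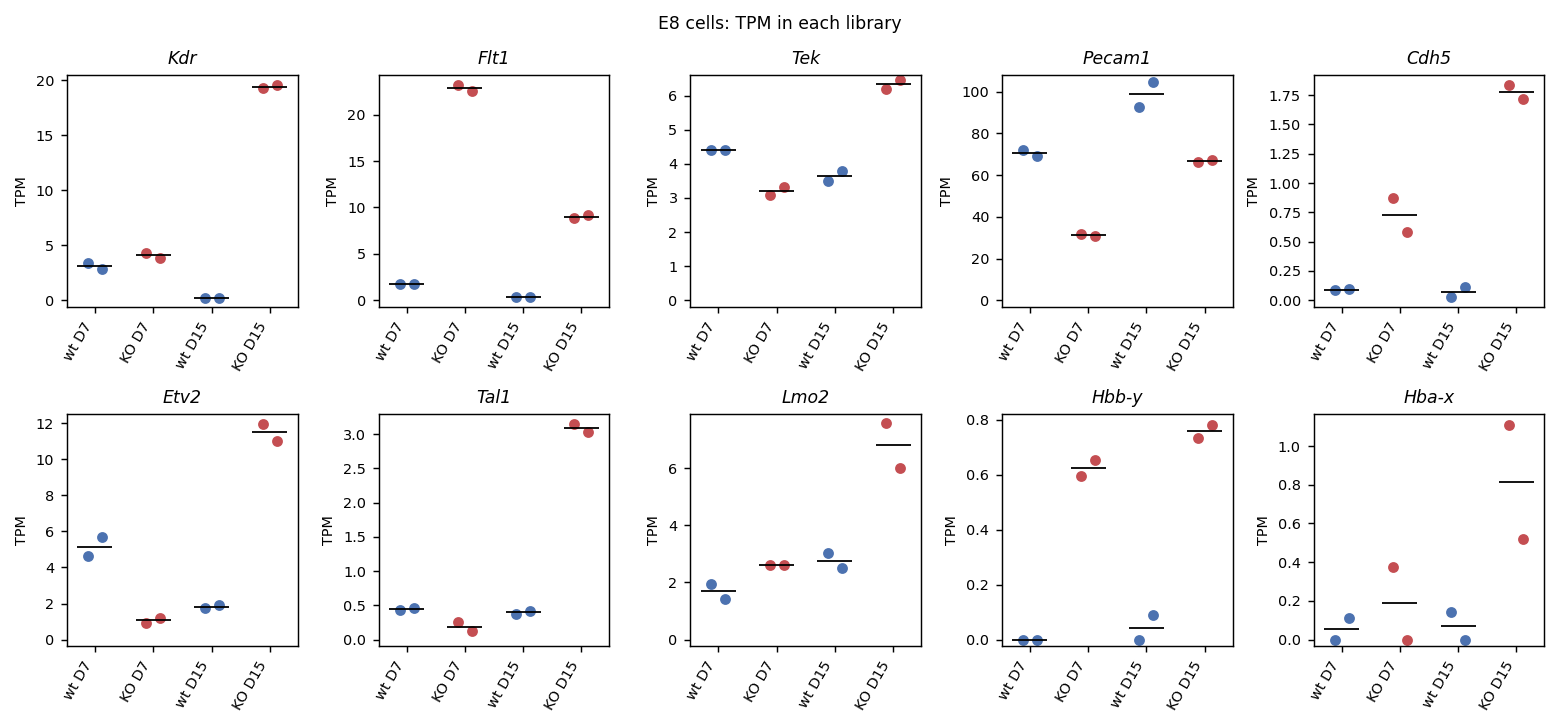
Level of each of the 10 genes in the 8 E8 libraries, in TPM as deposited (y axis, a scale for each gene). Points are libraries and lines are means of 2. In KO at D15, Kdr, Etv2, Tal1 and Lmo2 stand above every other group, and Flt1 is highest in KO at D7.

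In E8 cells, Flt1 was higher in KO on both days and Kdr at D15. At D7, limma on log2(TPM + 1) called 1 of the 7 members tested higher and 2 lower, beside 11.4% and 6.18% of 12452 genes. Flt1, the higher one, passed the filter on low values only through the KO libraries. Flt1 was 1.71 and 1.72 TPM in wt against 23.2 and 22.5 in KO, 13.3-fold by the means, with a log2 difference of 3.13 ± 0.05 (adjusted p = 6.24e-09). Pecam1 was lower, at 72 and 69.1 TPM in wt against 31.8 and 30.9 in KO (log2 -1.15 ± 0.06). Etv2 was lower as well, at 4.64 and 5.67 TPM in wt against 0.934 and 1.22 in KO (log2 -1.57 ± 0.10, adjusted p = 4.34e-06). Kdr was 3.42 and 2.88 TPM in wt against 4.33 and 3.82 in KO, which did not overlap but fell short of 2-fold. Tek, which was lower in KO (1.37-fold by the means), and Lmo2, which was higher (1.55-fold), also fell short. Tal1, at 0.430 and 0.459 TPM in wt against 0.257 and 0.121 in KO, fell short on the log2(TPM + 1) scale.

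At D15, 5 of the 7 members tested were higher in E8 KO and none lower, beside 7.67% of all genes called higher and 3.08% lower. Flt1 and Tal1 passed the filter only through KO libraries, where they are high. Lmo2 needed KO libraries as well, since among wt only D15 replicate 1 was above it. This count is thus no support either. Kdr was 0.246 and 0.180 TPM in wt against 19.3 and 19.6 in KO, 91.2-fold by the means, with a log2 difference of 4.07 ± 0.08 (adjusted p = 2.94e-08). Flt1 was 0.351 and 0.358 TPM in wt against 8.84 and 9.17 in KO (log2 2.88 ± 0.05). For both receptors the KO libraries were apart from wt by far more than the spread within a group.

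The 3 transcription factors were higher too. Etv2 was 1.74 and 1.90 TPM in wt against 12 and 11 in KO (log2 2.15 ± 0.10, adjusted p = 1.48e-06), the opposite of its difference at D7. Tal1 was 0.378 and 0.425 TPM in wt against 3.15 and 3.04 in KO (log2 1.55 ± 0.09). Lmo2 was 3.01 and 2.49 TPM in wt against 7.59 and 6.01 in KO (log2 1.05 ± 0.13). The call of Lmo2 is at the edge of 2-fold, and was lost without wt D15 replicate 2 or KO D15 replicate 1, or with TMM scaling.

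Tek at D15 was 3.49 and 3.79 TPM in wt against 6.20 and 6.45 in KO, 1.74-fold by the means. Pecam1 went the other way, at 92.9 and 105 TPM in wt against 66.5 and 67.5 in KO, 1.47-fold. Cdh5 and the globins were under the filter. Cdh5 was listed at 0.0297 and 0.115 TPM in wt against 1.83 and 1.72 in KO, Hbb-y at 0 and 0.0882 against 0.733 and 0.783, and Hba-x at 0.143 and 0 against 1.11 and 0.522. Hbb-y was also 0.596 and 0.654 TPM in KO at D7 and listed at 0 in both wt libraries. These globin levels in E8 KO are low beside the 17.3 and 17.0 TPM of Hbb-y and Hba-x in Tsix-stop wt at D15, on TPM scales made separately.

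In E8 wt, 3 members fell from D7 to D15 and none rose, beside 0.819% of all genes that fell and 0.586% that rose. Kdr fell from 3.42 and 2.88 TPM to 0.246 and 0.180 (log2 -1.77 ± 0.08), Etv2 from 4.64 and 5.67 to 1.74 and 1.90 (log2 -1.12 ± 0.10), and Flt1 from 1.71 and 1.72 to 0.351 and 0.358 (log2 -1.0 ± 0.05, lost without wt D15 replicate 1). In E8 KO, 5 members rose and 1 fell, beside 3.41% and 2.7% of all genes. Tal1, among the 5, passed the filter only through the KO D15 libraries, where it is high, so this count is no support. Kdr rose with a log2 difference of 2.01 ± 0.08, Etv2 with 2.59 ± 0.10, Tal1 with 1.79 ± 0.09, Lmo2 with 1.10 ± 0.13 and Pecam1 with 1.07 ± 0.06, while Flt1 fell (log2 -1.25 ± 0.05). The interaction of KO and day called 4 of 7 members beside 7.25% of all genes, with Tal1 tested only through the KO D15 libraries. It was 3.78 ± 0.12 for Kdr, 3.72 ± 0.15 for Etv2, 1.83 ± 0.12 for Tal1 and 1.02 ± 0.09 for Tek, all positive on the log2 scale. Tek was at the edge of 2-fold, and its call was lost without wt D15 replicate 1, KO D7 replicate 1 or KO D15 replicate 2.

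Summed levels of markers of other cell types differed between E8 genotypes as well. Most sums were higher in KO, and those of pluripotency and of cardiac muscle were lower. The visceral endoderm sum was 32.0 to 33.5 TPM in wt on both days, 1.43e+03 TPM in KO at D7 and 335 TPM in KO at D15, and 9 of 10 markers were higher in KO on each day. Ttr, Apob and Cubn were below 1 TPM in all 4 E8 wt libraries. They thus passed the filter only through KO libraries, where they are high, and the count is no support. The fibroblast sum was 338 to 363 TPM in wt against 694 to 711 in KO at D15, with 6 of 8 tested markers higher and 1 lower, and with Dcn and Lum below 1 TPM in all 8 libraries. Smooth muscle and pericyte markers summed to 28.2 to 31.9 TPM in wt and 240 to 243 in KO at D7, and to 26.8 to 28.1 TPM in wt against 124 to 126 in KO at D15. Of 6 such markers tested, 2 were higher at D7, with a median log2 difference of 0.19, and 4 at D15, and none was lower. Cardiac muscle markers summed to 38.5 to 40.5 TPM in wt against 13.3 to 14.2 in KO at D7, and to 28.5 to 30.7 against 19.5 to 21.7 at D15. Of 4 cardiac markers tested, 2 were lower and none higher at D7, and 1 was higher and 1 lower at D15. Trophoblast sums were 80.8 to 89.9 TPM in wt against 333 to 338 in KO at D15, with 5 of 8 markers called higher. Macrophage sums were 48.6 to 53.1 TPM in wt against 79.9 to 83.7 in KO at D15, but of 2 markers tested none was called. Pluripotency markers summed to 4.20e+03 to 4.34e+03 TPM in wt against 2.05e+03 to 2.09e+03 in KO at D7, where 5 of 10 were lower, and to 4.44e+03 to 4.76e+03 and 2.76e+03 to 2.77e+03 TPM at D15. The part of these differences in the results above was not tested. The lines also differ in strain, in the Kdm6a deletion and in clones, which cannot be told apart.

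**Figure D4:**
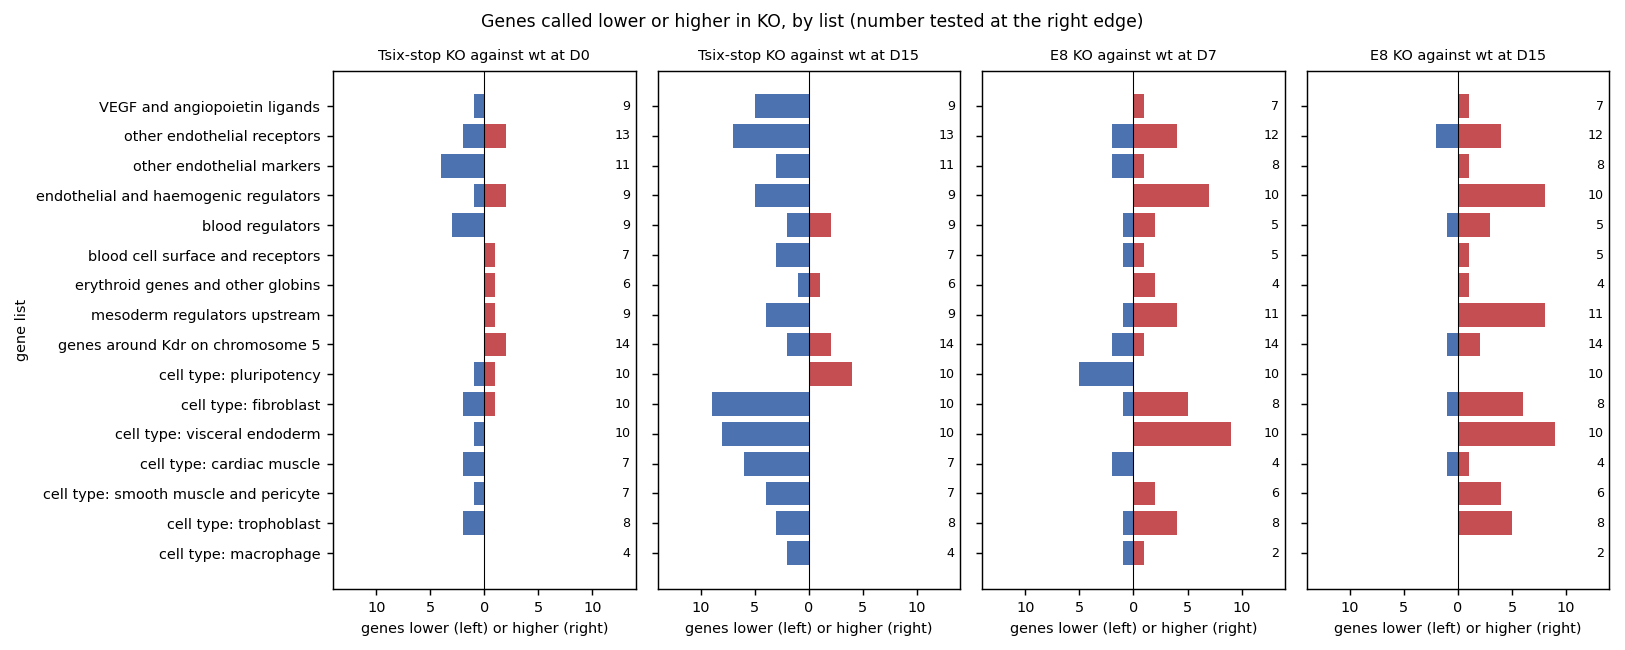
Genes of each list called lower (blue, left) or higher (red, right) in KO against wt in the 4 comparisons (x axis, number of genes), with the number tested at the right edge of each row. In Tsix-stop cells at D15 most calls of the endothelial and mesoderm lists are to the left, and in E8 cells at D15 most are to the right. Calls over all genes lean the same way, with 25.6% of them higher in Tsix-stop KO and 71.4% higher in E8 KO at D15.

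The ligands of these receptors were followed as a list of 10 genes. In Tsix-stop cells at D15, 5 of 9 tested were lower in KO and none higher, with a median log2 fold change of -1.03 beside -0.0018 over all genes. Of all genes, 11.1% were called lower and 3.83% higher there, and 5.01% and 3.11% at D0. In E8 KO 6.18% were lower and 11.4% higher at D7, and 3.08% and 7.67% at D15. Genes of this list and of those below can pass the filter through the libraries where they are high, so the list counts are no support. Angpt2, an antagonist of TIE2 signalling, had 473 and 429 counts in wt against 57 and 42 in KO (log2 -3.13). Pgf, a ligand of Flt1, had 1102 and 892 counts against 197 and 266 (log2 -2.03). Angpt1, the agonist of Tek, had 350 and 192 against 16 and 129 (log2 -1.78). The CRISPR control had 22, 471 and 118 counts of the 3. In E8 cells 1 of 7 ligands was higher in KO on each day, namely Vegfc at D7 (6.13 and 5.18 TPM in wt, 13.0 and 13.6 in KO) and Pgf at D15 (2.44 and 3.77 against 7.45 and 8.22).

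Other endothelial receptors gave 7 lower and none higher of 13 tested in Tsix-stop KO at D15, beside 11.1% and 3.83% of all genes. Nrp1, a VEGF co-receptor, led with 6087 and 4673 counts in wt against 628 and 665 in KO (log2 -2.98), and 262 in the CRISPR control. Ramp2, which pairs with the adrenomedullin receptor, had 362 and 390 counts in wt against 104 and 93 in KO (log2 -1.88), and Plxnd1, a semaphorin receptor, had 3381 and 3087 against 1044 and 1099 (log2 -1.53). At D0 Ramp2 was higher in KO (37 and 37 counts against 98 and 134), as was the lymphatic VEGF receptor Flt4 (116 and 90 against 275 and 378). Robo4 was lower in KO at D0 (70 and 88 against 15 and 39). In E8 KO, 4 of 12 were higher and 2 lower on each day. Nrp1 was 0.0884 and 0.108 TPM in wt against 9.71 and 9.63 in KO at D15. The apelin receptor Aplnr was 0.0668 and 0.162 TPM against 12.1 and 11.5, and S1pr1 0.179 and 0.257 against 3.68 and 3.38. Notch4 was lower in KO at D7, at 7.55 and 7.02 TPM in wt against 1.38 and 1.34 in KO, where Efnb2, an arterial ephrin, was higher (7.91 and 7.65 against 27.1 and 26.6).

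Of the other endothelial markers, 4 of 11 were lower in Tsix-stop KO at D0 and 3 of 11 at D15, with none higher. Of all genes, 5.01% and 11.1% were called lower. At D0 Plvap had 95 and 47 counts in wt against 21 and 11 in KO, Ecscr 98 and 100 against 22 and 33, and Adgrf5 46 and 58 against 17 and 14. The D0 CRISPR control was as low, with 25, 18 and 15 counts. At D15 Ecscr (276 and 285 against 62 and 129), Cd34 (348 and 266 against 142 and 117) and Plvap (313 and 352 against 138 and 158) were lower. In E8 KO the tight junction gene Cldn5 was lower at D7 (5.44 and 5.79 TPM against 0.811 and 1.16), with Mmrn2 (12.7 and 11.7 against 4.73 and 5.34), while Esam was higher (1.55 and 1.35 against 5.18 and 5.75). At D15, 1 of 8 was higher, Tmem88 (17.8 and 19.0 TPM against 62.2 and 64.5).

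The regulators of endothelium and haemogenic endothelium were a list of 14 genes. In Tsix-stop KO at D15, 5 of 9 tested were lower and none higher, beside 11.1% and 3.83% of all genes. Mecom, a stem cell factor, had 352 and 260 counts in wt against 28 and 26 in KO. Sox17, of arterial and haemogenic endothelium and also of endoderm, had 1022 and 906 against 65 and 154, and Foxc1 had 287 and 255 against 51 and 168. The CRISPR control was also below wt for these, with 32, 223 and 209 counts. At D0 Gata2 was lower (992 and 1347 counts in wt against 189 and 286, with 2292 in the control), and Sox18 (72 and 28 against 176 and 171) and Elk3 (272 and 178 against 426 and 940) were higher. In E8 KO, 7 of 10 were higher at D7 and 8 of 10 at D15, none lower, beside 11.4% and 7.67% of all genes called higher. The medians were 1.60 and 1.15 beside 0.10 and 0.085 over all genes. Sox17 and Ets1 were under the filter in every wt library and were tested only through KO libraries, where they are high. These counts and medians are thus no support. Sox17 was 1.81 and 1.53 TPM in wt against 46.9 and 47.2 in KO at D7, and 0.419 and 0.635 against 8.61 and 7.97 at D15. Ets1 was 1.40 and 1.71 against 23.5 and 22.9 TPM at D7 and 1.25 and 1.07 against 11.7 and 11.7 at D15. Sox7 was 1.44 and 1.62 TPM against 21.3 and 21.3 at D7, and the Notch target Hey2 was 0.193 and 0.405 against 3.40 and 2.82 at D15.

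Regulators of blood were mixed. In Tsix-stop KO 3 of 9 were lower at D0, namely Bcl11a (44 and 59 counts against 17 and 14), Gata1 (115 and 100 against 45 and 37) and Nfe2 (424 and 387 against 149 and 215). At D15, 2 were higher and 2 lower. Runx1, which drives definitive blood, was lower (968 and 871 counts against 276 and 497), as was Nfe2 (30 and 36 against 19 and 7), while Myb was higher (963 and 894 against 2820 and 2335). In E8 KO Runx1 was higher at D7 (0.422 and 0.421 TPM against 7.45 and 7.39) and D15 (0.333 and 0.357 against 2.92 and 3.21), as was the GATA1 partner Zfpm1 (12.1 and 10.5 against 36.1 and 35.8 at D7, 9.16 and 9.57 against 26.7 and 28.5 at D15). Myb was lower there (16.5 and 16.4 against 1.82 and 1.94 at D7, 13.1 and 14.3 against 5.02 and 5.14 at D15). Runx1 and Myb thus had opposite signs in the 2 lines at D15, a difference that was not tested.

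Among blood cell receptors, 3 of 7 were lower in Tsix-stop KO at D15, beside 11.1% of all genes. Among them, Csf1r had 1535 and 1215 counts against 155 and 402, and Cd44 had 2973 and 2303 against 360 and 890. At D0 the platelet integrin Itga2b was higher (32 and 20 counts against 68 and 78). In E8 KO Cd44 was higher on both days, at 0.811 and 0.742 TPM against 14.9 and 13.8 at D7 and 0.521 and 0.423 against 11.9 and 11.6 at D15, and the transferrin receptor Tfrc was lower at D7 (168 and 175 against 86.1 and 83.9). Of 6 erythroid genes tested at D15 in Tsix-stop cells, 1 was lower and 1 higher. The lower was Hbb-bh1, another embryonic beta-like globin, with 269 and 298 counts in wt against 0 and 3, with the CRISPR control at 3, as for the Hbb-y gene beside it. Slc4a1, the anion exchanger of red cells, was higher in KO (55 and 71 counts against 211 and 344). In E8 cells Hbb-bh1 was listed at 0 in all 4 wt libraries and at 2.5 and 3.27 TPM in KO at D15. Car2 was higher in E8 KO (45.7 and 43.7 TPM against 144 and 141 at D7, 22.4 and 23.7 against 109 and 118 at D15), as was the haem enzyme Uros at D7 (5.05 and 5.55 against 19.5 and 17.1).

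Upstream of Kdr, 4 of 9 mesoderm regulators tested were lower in Tsix-stop KO at D15 and none higher, beside 11.1% and 3.83% of all genes. They include Pdgfra (3168 and 2481 counts in wt against 307 and 254, with 573 in the control), Foxf1 (180 and 166 against 33 and 31) and T, the brachyury gene of nascent mesoderm (7.70 to 8.19 CPM in wt, 0.884 to 4.05 in KO and 55.7 in the control). In E8 KO, 4 of 11 were higher and 1 lower at D7, and 8 higher and none lower at D15. Of all genes, 11.4% were called higher at D7 and 7.67% at D15. The median of the list was 2.56 at D15 beside 0.085 over all genes. Hand1 was 4.59 and 4.55 TPM in wt against 47.9 and 50.2 in KO at D7, and 2.82 and 3.05 against 157 and 160 at D15. T was 6.30 to 6.40 TPM in wt at D7 with both KO libraries at 46.9, and 2.23 to 3.0 against 66.2 to 67.3 at D15, and Mixl1 was 0.620 and 0.383 against 20.7 and 21.6 at D15.

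Kdr (chr5:75932827-75978458, minus strand) is the last of a row of 3 receptor tyrosine kinase genes on chromosome 5, after Pdgfra (75152292-75198215) and Kit (75574916-75656722). Kit, between the others, was called in no comparison of genotype. It had 14603 and 14417 counts in Tsix-stop wt and 19562 and 13695 in KO at D0, and 6372 and 5251 against 7754 and 6208 at D15. Pdgfra was not called at D0 (104 and 93 counts against 133 and 158), where Kdr was higher in KO, and was lower at D15 like Kdr. In E8 KO Pdgfra was higher at D7 (1.28 and 1.30 TPM against 45.5 and 43.5) and at D15 (0.689 and 0.832 against 10.6 and 10.4). Over the 14 genes tested around Kdr, Kdr included, 2 were higher and none lower in Tsix-stop KO at D0, and 2 higher and 2 lower at D15. The other calls were Gsx2, higher at D0 (76 and 45 counts against 407 and 330) and D15 (35 and 30 against 117 and 54), and Pdcl2, higher at D15 (396 and 226 against 701 and 735) and lower in E8 KO at D7 (12.9 and 14.7 TPM against 2.64 and 2.54) and D15 (16.7 and 14.4 against 6.08 and 5.6). Lnx1 was lower in E8 KO at D7 (8.27 and 7.67 against 3.38 and 3.30).

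Reads over SNPs between 129 and cast show which allele carried the Tsix-stop signal, for libraries with at least 20 such reads for a gene. At D0 the Kdr reads of KO and of the CRISPR control came mostly from the 129 allele. Its share was 80.5% (66 of 82 reads, 95% Wilson interval 70.6 to 87.6) and 90.4% (94 of 104, 83.2 to 94.7) in KO and 76.9% (50 of 65, 65.4 to 85.5) in the CRISPR control. In wt at D0 there were 4 and 9 SNP reads, too few for a share. At D15 the share was 50.4% (41.9 to 58.8) and 60.6% (48.9 to 71.1) in wt against 42.0% (29.4 to 55.8) in the CRISPR control, so the D0 intervals of KO lie above that of wt replicate 1 and the control. Over the 20 genes nearest to Kdr with enough reads the median 129 share was 46.6% to 50.9% in all 10 libraries.

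Tek was biased to 129 as well. Its share was 93.8% and 87.5% in wt at D0, 52.0% and 88.4% in KO at D0, 67.9% and 53.6% in wt at D15, and 81.9% and 82.4% in KO at D15. KO D0 replicate 1 thus differed from its partner, and it also had the higher Tek level of the pair (9.04 against 4.55 CPM). Lmo2 leaned to cast at D0, with a 129 share of 18.9% and 16.7% in wt against 26% and 15.2% in KO, with the CRISPR control at 18.6%, beside medians of 57.4% to 60.6% for its neighbours in those libraries. Pecam1, with 1457 to 3025 SNP reads a library, was near even at D0 (48.4% to 52.5%) and lower at D15, at 35.3% and 35.0% in wt against 41.7% and 41.1% in KO, with the CRISPR control at 37.0%. The 20 genes nearest to Pecam1 differed between genotypes in the same way at D15. Their medians were 45.6% in both wt libraries against 52.3% and 51.6% in KO. Chromosome 11 as a whole, which also holds Hba-x, did so too. Its median over genes was 45.5% and 45.7% in wt at D15, 51.5% in both KO libraries and 51.3% in the CRISPR control. In wt at D0 it was 51.9% and 52.2%. On chromosome 8, which holds Cdh5, wt medians were 44.4% and 45.3% at D0 and 47.2% in both D15 libraries. In KO they were 50.8% to 51.0%. The part of these shifts in the differences between wt and KO was not tested. Flt1 at D15 was between 44.4% and 55.3% in the 5 libraries, and Cdh5 between 42.2% and 51.0% in the 4 that had enough reads. Hbb-y was 33.3% and 37.0% in wt at D15. Etv2 had at most 2 SNP reads in any library. The intervals hold counting error alone, because reads were not tagged by molecule.

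**Figure D5:**
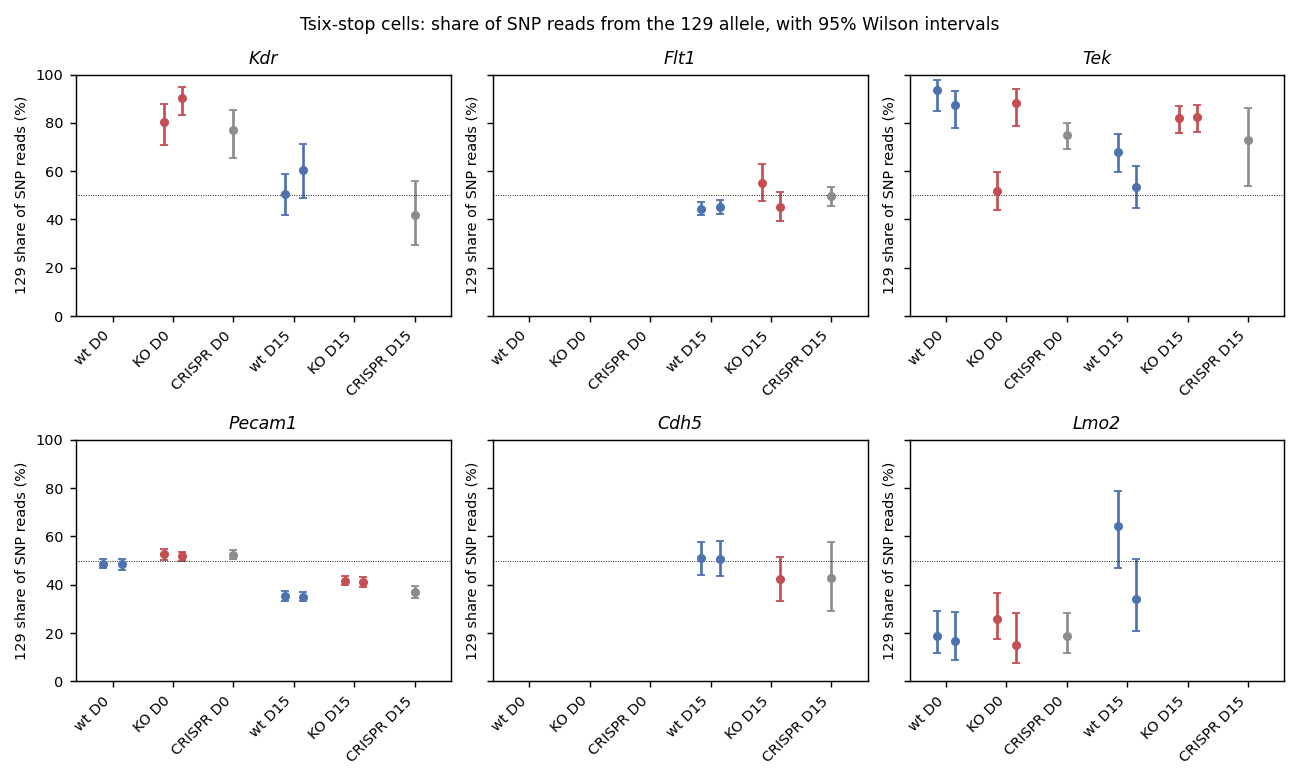
Share of SNP reads from the 129 allele (y axis, percent) for 6 genes in the Tsix-stop libraries with at least 20 SNP reads. Bars are 95% Wilson intervals and the dotted line is 50%. Kdr is above 75% in KO and the CRISPR control at D0 and between 42.0% and 60.6% at D15, Tek is above 50% in every library and Lmo2 is below 30% at D0.

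The genes whose pattern was most like that of Kdr over the 10 Tsix-stop libraries, by Pearson's r of log2(CPM + 1) among 13174 genes, were Sh3pxd2b (0.96), Tgfbr3 (0.96), Cldnd1 (0.95), Rnf25 (0.94) and Syde1 (0.94). Sh3pxd2b was 12.9 and 13.1 CPM in wt against 31.4 and 45.6 in KO at D0, and 53.6 and 51.7 against 17.7 and 26.9 at D15. Tgfbr3, a TGF-beta co-receptor, was 10.7 and 16.7 against 34.7 and 34.5 at D0 and 61.3 and 53.5 against 11.1 and 15.5 at D15. The CRISPR control was close to KO for both at D0, at 32.3 and 35.2 CPM. For 7 other members in that set, which does not hold Hbb-y or Tal1, r with Kdr ran from -0.26 for Etv2 to 0.57 for Hba-x, and it was 0.30 for Flt1. Over the 8 E8 libraries the most similar genes on log2(TPM + 1) were Cx3cl1, Vstm2b, Epn3, A2m and Aplnr, all with r above 0.99, and r with Kdr was 0.79 for Tal1, 0.75 for Tek, 0.72 for Etv2, 0.67 for Flt1 and -0.35 for Pecam1. The libraries share their groups, so these values are descriptions.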

How the data were processed

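PolyA RNA was sequenced in 18 libraries (single-end, TruSeq). Per the labels, the authors aligned reads to mm10 with Bowtie2 2.4.5 and TopHat2 2.1.1, and the methods describe SNP assignment against a pseudo-genome. The annotation used for counting and the strand setting are not given in the sources used here. For Tsix-stop cells the authors deposited estimated counts per gene, overall and for reads with 129 or cast SNPs. Of these values 7.10% were not whole and were rounded. For E8 cells they deposited TPM. Symbols repeated in the E8 tables (537) were summed.

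Genes with at least 2.5 CPM (or TPM) in at least 2 libraries were tested, with groups as labelled and 1 spread over all groups of a line. Counts were fitted with the quasi-likelihood test of edgeR 4.0.16 after TMM scaling, without the CRISPR control, and log2(TPM + 1) with limma 3.58.1. P-values were adjusted over all genes by Benjamini-Hochberg. Calls needed both an FDR of at most 0.1 and a 2-fold change. E8 log2 differences understate changes of low genes. Tsix-stop TPM values were computed from the counts and GENCODE exon lengths (GRCm38). Fits were tested on simulated data. Floors are 3 counts per library.

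The 10 genes and the lists were chosen with earlier results of these data known. Named genes are the 10, Kdm6a, Pdgfra, Kit, the 5 genes most like Kdr in each line and, for each list and comparison of genotype, up to 3 called genes of largest change whose groups do not overlap. Hbb-bh1 in E8 and Pou5f1 were named after their values were seen. Alternatives were DESeq2 1.42.0, its size factors, other filters, another pseudocount, TMM-scaled TPM, each library left out, the replicate number as a block, the CRISPR control added to wt and 50 in place of 20 SNP reads. E8 allele columns were not used here. A result that the rule for named genes gives is not reported here.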

Additional observations from a re-analysis of the deposited data

Results flagged for a closer look

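The effect of KO differed between days by the interaction test in both lines. In Tsix-stop cells the interaction was -6.21 on the log2 scale for Kdr and -2.47 for Flt1. For Hbb-y the fitted value was -12.47, which depends on the prior count because Hbb-y had at most 3 counts outside the wt D15 libraries. In E8 cells it was 3.78 for Kdr, 1.02 for Tek, 3.72 for Etv2 and 1.83 for Tal1, which was tested only through the KO D15 libraries where it is high.

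At D15, 7 genes had every KO library below every wt library in Tsix-stop cells and above every wt library in E8 cells, and the difference between the lines was not tested. Of 19056 genes detected in both lines at D15, 23.2% had this pattern, so it is common with 2 libraries a group. The mean of KO minus the mean of wt was -3.41 TPM in Tsix-stop and 19.2 TPM in E8 cells for Kdr, -15.6 and 8.65 for Flt1, and -5.18 and 1.70 for Cdh5. For the transcription factors it was -0.475 and 2.69 TPM for Tal1 and -1.42 and 4.05 for Lmo2. For the globins it was -17.3 and 0.714 TPM for Hbb-y and -16.9 and 0.745 for Hba-x. In Tsix-stop cells the single library labelled CRISPR control was also below both wt libraries for all 7.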

How the results depend on the processing

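Of 135 recomputed counts of called members, 120 stayed within 1.5 times the value in the text. Leaving out 1 library gave 1 to 2 called members for Tsix-stop KO against wt at D0, 2 to 5 at D15, 5 to 8 for wt days, 5 to 7 for KO days and 1 to 4 for the interaction. The count at D0 was 2 without KO D0 replicate 2 (Tek added) and without KO D15 replicate 1 or 2 (Cdh5 added). Without wt D15 replicate 1 or 2 the globins no longer passed the filter, so 7 members were tested, 2 were called at D15 and 1 in the interaction, and without replicate 1 there were 5 for wt days. In E8 cells the ranges were 3 to 5 at D15 (3 without KO D15 replicate 1) and 2 to 4 for the interaction (2 without KO D15 replicate 2). At D0 no filter and DESeq2 each gave 2 called members (Cdh5 added). With the CRISPR control counted as wt, the counts were 0 at D0, 3 at D15 and 0 for the interaction.

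The replicate numbers are shared by the groups, but the labels tie them to no litter, batch or day. The difference of replicate 1 minus replicate 2 was taken for each gene and correlated over genes between groups of a line. These correlations ran from -0.162 to 0.198. With the replicate number as a block, edgeR called 6 members at D15 in place of 5, since Lmo2 passed at a log2 fold change of -1.04, and 1 at D0, and it changed no other call.

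Some log2 values changed sign. With the CRISPR control counted as wt, the log2 fold change was -0.031 for Tek and -0.016 for Lmo2 at D0, -0.19 for Tek and -0.16 for Pecam1 in wt days, and 0.76 for Tek, 0.27 for Pecam1 and -0.043 for Etv2 in the interaction. Of these, Tek in wt days was called in the text (adjusted p = 0.806 with the control added). Without 1 library the log2 values at D0 ran from -1.04 to 1.11 for Flt1 and -0.39 to 0.51 for Lmo2. At D15 they ran from -0.15 to 0.37 for Pecam1 and -0.35 to 0.0013 for Etv2. In KO days Pecam1 ran from -0.15 to 0.36, and in the interaction Tek ran from -0.89 to 0.083, Pecam1 from -0.34 to 0.17 and Cdh5 from -0.93 to 2.17. With a pseudocount of 0.1 the E8 interaction of Flt1 was 0.67 in place of -0.25. The causes were not tested. With 2 libraries a group, 1 KO clone in E8 and no depth for E8, small differences could not be resolved.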
